A study of Homo sapiens with 3 samples.

Results

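The genes described here are 7 genes of mitosis and cytokinesis, CCNB1, CDC20, UBE2C, BIRC5, CENPF, CEP55 and ANLN, of 110 endogenous genes counted in all. They were chosen by gene name for their place in cell division, with earlier results of these data known. Each was found once in the count table. RNA was counted with NanoString's nCounter, an assay that binds a probe with a coloured barcode to every target RNA and counts the barcodes one by one, with no amplification. The samples were the stem, basal and luminal subpopulations of MCF10A, a non-tumorigenic line of immortalised cells from human breast epithelium, with 1 library each. All 3 come from this single line, and the labels give no treatment. How the subpopulations were separated and how old the cultures were are not given in the sources used here, and the labels name an RNA kit made for fixed tissue.

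Cells enter mitosis when cyclin B1 activates its partner kinase. They leave it when the anaphase-promoting complex, an E3 ubiquitin ligase, marks cyclin B1 and the inhibitor of chromatid separation for destruction. The spindle is attached to chromosomes at the kinetochore, and the daughter cells are parted by an actomyosin ring and a final cut at the midbody. RNAs of these genes accumulate late in the cell cycle, so in a mixed culture their level follows the share of dividing cells as well as the RNA per cell. In RNA from whole populations, fewer dividing cells and less RNA per cell cannot be told apart.

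Genes of this group are often described as targets of a shared promoter arrangement, a CCAAT box together with the cell cycle genes homology region (CHR), whose usual letters are TTTGAA or TTTAAA. Promoters of 5 of the 7 genes were matched in RefSeq (GRCh38.p14), and the last 120 bases before the annotated start are shown because all 7 genes had ratios above 1 between basal and luminal. Of the 79 genes compared there, 43 had ratios above 1. Each promoter is on the plus strand and written 5′ to 3′. Capitals mark matches to either CHR form and to CCAAT on either strand, so that TTTGAA on the minus strand reads TTCAAA and CCAAT there reads ATTGG.
CCNB1, chr5:69167030-69167149: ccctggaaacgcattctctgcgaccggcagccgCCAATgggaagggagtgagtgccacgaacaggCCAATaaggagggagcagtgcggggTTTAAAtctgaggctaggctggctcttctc
CDC20, chr1:43358861-43358980: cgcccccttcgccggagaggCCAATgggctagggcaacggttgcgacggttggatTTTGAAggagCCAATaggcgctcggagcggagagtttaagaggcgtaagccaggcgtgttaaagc
CENPF, chr1:214603075-214603194: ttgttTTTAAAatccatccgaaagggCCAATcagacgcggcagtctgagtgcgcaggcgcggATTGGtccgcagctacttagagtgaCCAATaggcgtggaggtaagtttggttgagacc
CEP55, chr10:93496492-93496611: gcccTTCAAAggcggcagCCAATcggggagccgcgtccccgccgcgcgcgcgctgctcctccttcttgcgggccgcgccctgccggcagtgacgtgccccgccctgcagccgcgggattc
ANLN, chr7:36389742-36389861: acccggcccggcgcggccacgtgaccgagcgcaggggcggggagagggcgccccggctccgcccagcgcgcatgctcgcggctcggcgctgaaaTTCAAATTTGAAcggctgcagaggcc

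Within 250 bases before the start, all 5 promoters held TTTGAA or TTTAAA, 3 of them TTTGAA and 2 of them TTTAAA, and 4 of 5 held CCAAT. Over 35116 RefSeq promoter windows of the same length, 13.3% held TTTGAA, 11.3% TTTAAA and 32% CCAAT on either strand, 21.9% held either CHR form, and 7.64% held either form together with CCAAT. In ANLN the pair of TTTGAA matches, 1 on each strand, ends shortly before the start, and no CCAAT was found in the window. Order and spacing were not scored. In CENPF and CEP55 the CHR match lies farther from the start than every CCAAT match, in CCNB1 it lies nearer, and in CDC20 the order is mixed. These matches describe letters and are not binding sites, and their part in the counts was not tested.

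The libraries differed widely in depth. The endogenous counts summed to 792367 in stem, 8891 in basal and 9136 in luminal, so counting error in basal and luminal set the precision of every comparison. All 7 genes were above background (the mean plus 2 SD of 8 negative control probes) in all 3 libraries, and together they made up 6.21% of the endogenous counts in stem, 5.58% in basal and 4.27% in luminal. Counts were divided by the geometric mean of 5 housekeeping genes of the same library, and a normalised count is the count per 100 of that mean. The panel held 6 of 7 listed luminal and 5 of 6 listed basal markers but none of the 3 listed stem markers, so the stem label could not be checked. The luminal markers summed to 84523 counts in stem, 1084 in basal and 1269 in luminal, nearly all of them KRT8, while GATA3, ESR1 and KRT19 were listed at the lowest value, 1, in basal and luminal. The basal markers summed to 174006 counts in stem, 2064 in basal and 2203 in luminal, led by the keratins KRT5, KRT14 and KRT17. These sums are mostly keratins, and single markers differed between basal and luminal. CD24 had 4 counts in basal and 21 in luminal, and EPCAM 1 and 6. For basal over luminal, KRT14 had a log2 ratio of 0.48 (0.30 to 0.66), VIM 0.44 (0.14 to 0.74) and KRT17 -0.42 (-0.62 to -0.22). The part of these markers in the results was not tested. No subpopulation has a replicate library, so none could be tested and no p-value is given. Intervals are 95% intervals for counting error only (exact Poisson for a level, exact Clopper-Pearson conditional on the sum for a ratio), and each probe has its own efficiency, so levels are compared between libraries and not between genes. They hold the housekeeping scale fixed. Its own counting error, 0.23 (log2) for stem over basal, 0.19 for stem over luminal and 0.29 for basal over luminal, is not in them. Counting error below is that of the genes' own counts unless the scale is named.

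Cyclin B1, the activating subunit of the mitotic entry kinase, is encoded by CCNB1 (NM_031966.2). It was counted 9589 times in stem, 143 times in basal and 108 times in luminal. Its normalised count was 74.6 (73.2 to 76.2) in stem, 121 (102 to 142) in basal and 78.3 (64.2 to 94.5) in luminal. Basal was thus the high library for cyclin B1, and stem and luminal did not differ beyond counting error.

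CDC20 (NM_001255.2) encodes the activator that directs the anaphase-promoting complex to its substrates. Its counts were 10415 in stem, 86 in basal and 88 in luminal, with normalised counts of 81.1 (79.5 to 82.6), 72.6 (58.1 to 89.7) and 63.8 (51.1 to 78.6) in that order. Stem lay narrowly above luminal, with a lower limit of 0.04 (log2) that the counting error of the scale, 0.19, exceeds. Basal lay between them within counting error of both. UBE2C (NM_007019.2), the ubiquitin-conjugating enzyme that works with that complex, had counts of 7061 in stem, 82 in basal and 54 in luminal. Its normalised counts were 55.0 (53.7 to 56.3) in stem, 69.3 (55.1 to 86.0) in basal and 39.1 (29.4 to 51.1) in luminal. Luminal was the low library for this enzyme, and the interval of stem over basal ended only just below equality.

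BIRC5 (NM_001012270.1) encodes survivin, a subunit of the chromosomal passenger complex that corrects chromosome attachment and acts at the midzone. Counts of 7106 in stem, 57 in basal and 38 in luminal gave normalised counts of 55.3 (54.0 to 56.6), 48.2 (36.5 to 62.4) and 27.5 (19.5 to 37.8) in that order. Stem and basal did not differ beyond counting error, and both lay above luminal. The probe is listed under 1 of the gene's transcripts, and which survivin isoforms it reads is not given. CENPF (NM_016343.3), a large protein of the outer kinetochore, had counts of 6195 in stem, 42 in basal and 36 in luminal. Its normalised counts were 48.2 (47.0 to 49.4) in stem, 35.5 (25.6 to 48.0) in basal and 26.1 (18.3 to 36.1) in luminal. Stem was the high point for CENPF, but its lower limit against basal, 0.0063 (log2), was smaller than the counting error of the scale, 0.23. Basal and luminal did not differ beyond counting error.

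CEP55 (NM_001127182.1) encodes the midbody protein that recruits the machinery of the final cut. It had counts of 7642 in stem, 77 in basal and 59 in luminal, and normalised counts of 59.5 (58.2 to 60.8), 65.0 (51.3 to 81.3) and 42.8 (32.5 to 55.2) in that order. Luminal was the low library, and stem and basal did not differ beyond counting error. ANLN (NM_018685.2) encodes anillin, the scaffold of the contractile ring. It was the sparsest of the 7, with 1169 counts in stem, 9 in basal and 7 in luminal, and normalised counts of 9.10 (8.59 to 9.64) in stem, 7.60 (3.48 to 14.4) in basal and 5.07 (2.04 to 10.5) in luminal. No order of the libraries could be read for ANLN at this depth.

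**Figure D1:**
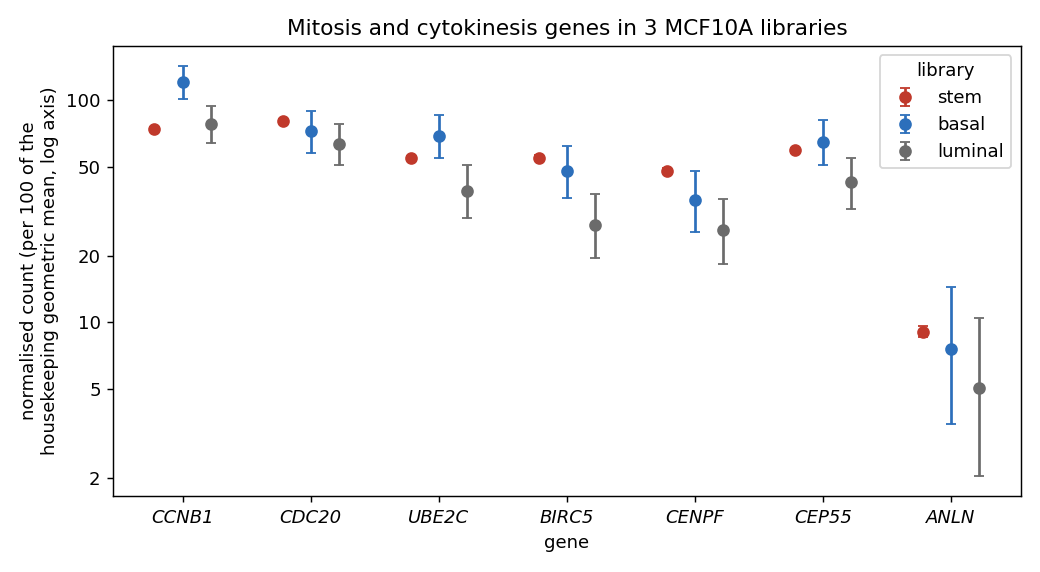
Normalised count (log axis, per 100 of the housekeeping geometric mean) of the 7 genes in the stem, basal and luminal libraries, with 95% Poisson intervals for counting error (1 library each). Luminal is the lowest point for every gene except CCNB1, where stem, at 74.6, lies just under luminal, at 78.3, and basal, at 121, stands above both.

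Between the stem and basal libraries the 7 genes split. CCNB1 was lower in stem, at 0.62-fold (0.52 to 0.73), a log2 ratio of -0.69 (-0.93 to -0.45). UBE2C was lower at -0.33 with an upper limit of -0.0014, and CENPF was higher at 0.44 with a lower limit of 0.0063. Both limits were nearer equality than the counting error of the scale, 0.23. The other 4 had intervals that included equality. They were CDC20 at 0.16 (-0.15 to 0.48), BIRC5 at 0.20 (-0.18 to 0.60), CEP55 at -0.13 (-0.45 to 0.21) and ANLN at 0.26 (-0.67 to 1.39). The background over the panel was 12.8% higher and 11.7% lower in stem, counting genes with intervals that excluded equality among the 94 measured above background, against 1 higher and 2 lower of the 7. Those 94 passed background in stem, while 74 genes passed it in basal. Some of the 94 thus had the lowest listed value in basal, with wide intervals that seldom exclude equality. The single higher gene is near that share and is not a result about the group.

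No member differed by 2-fold or more between stem and basal, where 3.19% of all genes were higher and 0% lower by that rule. The median log2 ratio of the 7 genes was 0.16, beside 0.03 over all 94 genes, and their summed counts gave -0.13 (-0.26 to 0.0003). The sign of this sum rested on CCNB1, without which it came to 0.05. It also turned positive without SF3A1 among the housekeeping genes (0.03), under scaling by total count (0.15) and on the scale of 6 positive controls (0.33). The lower CCNB1 in stem kept an interval below equality in 10 of the 11 settings of scale and background tried, the housekeeping scale included. The exception was the scale of 6 positive controls, where it came to -0.23 with an interval that reached 0.02. UBE2C kept its interval below equality in 5 of 11 settings and turned to 0.13 on that same scale, and CENPF kept its interval above equality in 7 of 11.

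Between the stem and luminal libraries 6 of the 7 genes had ratios above 1 and 5 had intervals that excluded equality. Of all 94 genes measured above background, 54 had ratios above 1, among them all 7 other mitosis genes and all 8 S phase genes. These 94 passed background in stem, while 76 genes passed it in luminal. For those that did not pass it in luminal, the lowest listed value there largely sets the ratio and widens its interval. The part of such genes in the panel shares and medians was not tested. BIRC5 was 2.01-fold higher in stem (1.46 to 2.84), and it alone of the 7 passed 2-fold, by a margin smaller than the counting error of the scale. CENPF was 1.85-fold higher (1.33 to 2.64). UBE2C, at 1.40-fold (1.08 to 1.87), CEP55, at 1.39-fold (1.08 to 1.83), and CDC20, at 1.27-fold (1.03 to 1.59), were higher by less. ANLN had 1.79-fold with an interval of 0.87 to 4.47, and CCNB1 0.95-fold (0.79 to 1.16). BIRC5, CENPF and ANLN thus had the larger point ratios and CCNB1 the smallest, near equality. The other kinetochore genes on the panel, NDC80 at 1.20-fold and NUF2 at 1.27-fold, had intervals that included equality.

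Over all 94 genes the share higher in stem with an interval that excluded equality was 20.2%, and the share lower 4.26%, against 5 and 0 of the 7. By the 2-fold rule 2.13% were higher and 2.13% lower, against 1 and 0 of the 7. The median gene of the panel had 14 counts in luminal and 6 of the 7 had 36 or more, which narrows their intervals, and the part of this in the shares was not tested. The median log2 ratio of the 7 was 0.49, beside 0.16 over all 94 genes, and the summed counts gave 0.44 (0.29 to 0.59). BIRC5 and CENPF kept intervals above equality in all 11 settings, UBE2C and CEP55 in 9 and CDC20 in 8. The number of genes with such intervals was 2 under median of ratios and without RPLP0. The settings include the scales from 6 positive controls and from probes A to D among them, which add 1.66 and 1.77 to every gene here. BIRC5 came to less than 2-fold in 3 settings, namely without RPLP0, without SF3A1 and under median of ratios.

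Between the basal and luminal libraries all 7 genes had ratios above 1. Of the 79 genes measured above background, 43 did, among them all 7 other mitosis genes and 5 of the 8 S phase genes. Fewer passed background in each library, 74 in basal and 76 in luminal. UBE2C was 1.77-fold higher in basal, BIRC5 1.75-fold, CCNB1 1.54-fold and CEP55 1.52-fold. Their log2 ratios were 0.82 (0.31 to 1.35), 0.81 (0.19 to 1.44), 0.63 (lower limit 0.26) and 0.61 (0.10 to 1.12). The intervals of CDC20 at 0.19 (-0.26 to 0.63), CENPF at 0.44 (-0.23 to 1.13) and ANLN at 0.58 (lower limit -1.01, upper limit 2.24) included equality. The intervals of all 7 overlapped, so the genes with separated levels are not told apart from the rest of the 7 by them.

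Among the 79 genes measured above background here, 12.7% were higher in basal with intervals that excluded equality and 3.8% were lower, against 4 and 0 of the 7. By number, 4 of the 10 genes that were higher belong to the 7. The median gene of the panel had 12 counts in basal and 14 in luminal. Every member but ANLN had 36 or more in both, which narrows their intervals. The part of this in the shares was not tested. None of the 7 passed 2-fold, where 0% of all genes were higher and 2.53% lower. The median log2 ratio of the 7 was 0.61, beside 0.14 over the 79 genes, and their summed counts of 496 in basal and 390 in luminal gave 0.57 (0.37 to 0.76). CCNB1 and UBE2C kept intervals above equality in all 11 settings, BIRC5 in 10 and CEP55 in 9. The same positive control scales add 1.19 and 1.65 to every gene here. Only on those scales did CDC20, CENPF and ANLN have such intervals. SF3A1, counted 10 times in basal and 22 times in luminal, carried much of the housekeeping scale here. Without it the sum came to 0.34, and only CCNB1 and UBE2C had intervals that excluded equality. The counting error of the housekeeping scale moves all genes alike, and extended 0.29 (log2) to either side of a basal over luminal ratio. It was 0.23 for stem over basal, and 0.19 where stem was set against luminal. The 5 housekeeping genes also differed among themselves, which these limits do not cover. Their log2 ratios ran from -0.84 (RPLP0) to 0.66 (SF3A1) for stem over basal, beside -0.69 for CCNB1. The interval of RPLP0 there was -0.90 to -0.78. They ran from -0.45 (RPLP0) to 0.50 (MRPL19) between stem and luminal. Between basal and luminal they ran from -0.92 (SF3A1) to 0.44 (PSMC4), and their SD, 0.55, was close to the 0.57 of the sum.

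**Figure D2:**
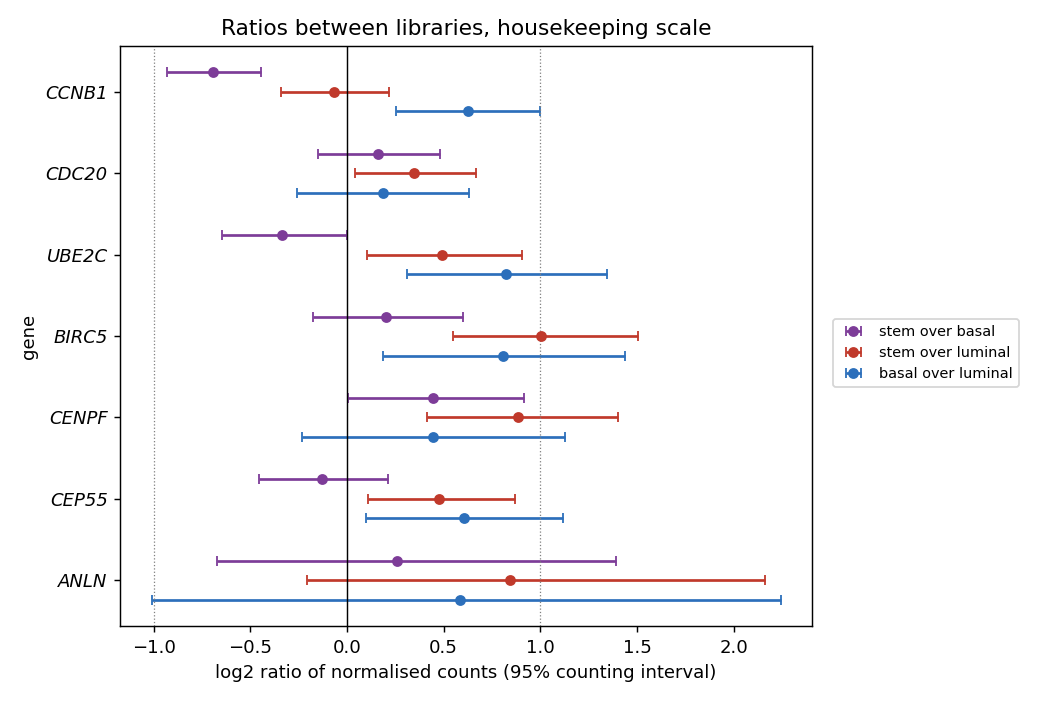
Log2 ratio of normalised counts of each gene (rows) for stem over basal, stem over luminal and basal over luminal, with 95% counting intervals, a solid line at equality and dotted lines at 2-fold. CCNB1 is the one gene clearly left of equality for stem over basal (-0.69), all 7 points lie right of it for basal over luminal, and BIRC5 for stem over luminal (2.01-fold) touches the 2-fold line.

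The proportions among the 7 genes need no scale between libraries, since any scale moves all of them alike. Each gene's odds against the other 6 were compared between libraries. CCNB1 made up 19.5% of the 7 genes' counts in stem (19.1 to 19.9, exact binomial interval), 28.8% in basal (24.9 to 33.0) and 27.7% in luminal (23.3 to 32.4). Its log2 odds were -0.74 (-1.03 to -0.45) for stem over basal and -0.66 (-0.99 to -0.33) for stem over luminal. The share of cyclin B1 was thus low in stem against each of the other libraries, beyond counting error. Both comparisons rest on the same stem library.

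CENPF showed the opposite, with 12.6% in stem, 8.47% in basal and 9.23% in luminal. Shares within a library are tied to each other, so a low share of CCNB1 in stem by itself raises the odds of the other genes there. The part of CCNB1 in the odds of CENPF, BIRC5 and CDC20 was not tested. Its log2 odds were 0.64 (0.18 to 1.13) for stem over basal and 0.50 with a lower limit of 0.0045 for stem over luminal, so its share was high in stem, narrowly against luminal. BIRC5 held 14.4% in stem, 11.5% in basal and 9.74% in luminal. Its log2 odds of 0.65 (0.16 to 1.17) for stem over luminal excluded equality and those of 0.38 (-0.02 to 0.81) for stem over basal did not. CDC20 held 21.2% in stem, 17.3% in basal and 22.6% in luminal, with log2 odds of 0.36 (0.02 to 0.71) for stem over basal and -0.12 (-0.47 to 0.24) for stem over luminal. The shares of UBE2C, CEP55 and ANLN had intervals that included equality in all 3 comparisons.

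Taking the genes by pairs, 8 of 21 pairs had changed proportions beyond counting error for stem over basal, 5 of 21 for stem over luminal and 0 of 21 for basal over luminal. CCNB1 was in 4 of the 8 and in 4 of the 5. The widest were CCNB1 against CENPF for stem over basal, with log2 odds of -1.14 (-1.67 to -0.63), and CCNB1 against BIRC5 for stem over luminal, with -1.07 (-1.65 to -0.53). The intervals for basal over luminal are wider, because both libraries are shallow, so a count of 0 there does not show equal proportions. The pairs reuse the same genes and are not independent. Odds were not taken in this way for other panel genes, singly or by pairs. How common such changes are over the panel was thus not tested.

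**Figure D3:**
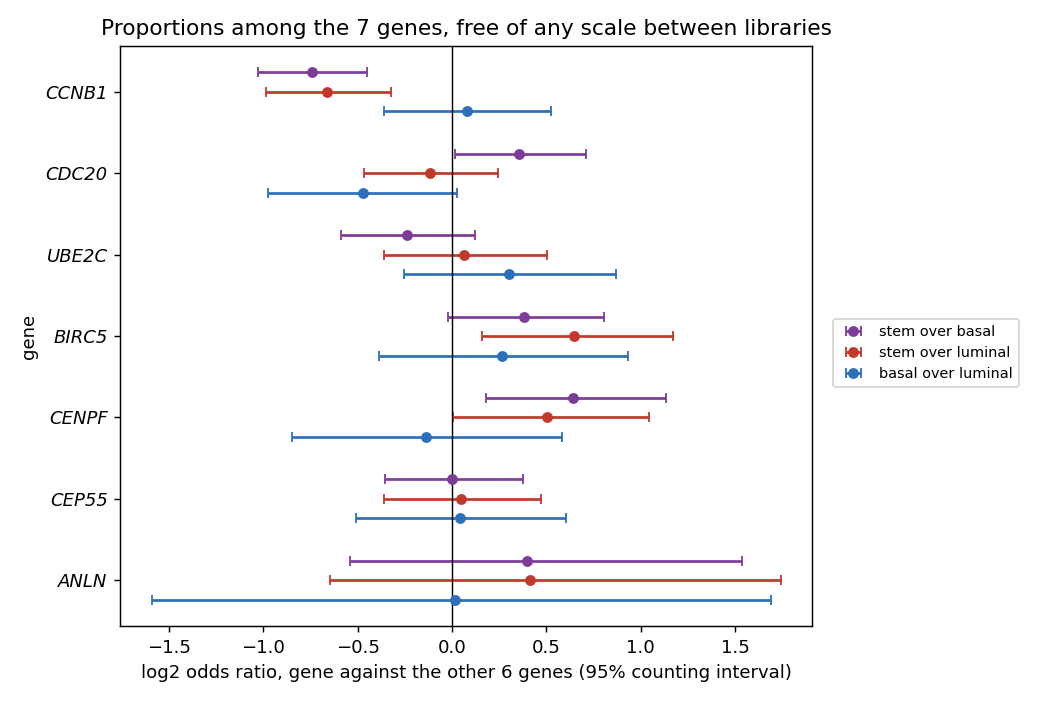
Log2 odds ratio of each gene against the summed other 6, for stem over basal, stem over luminal and basal over luminal, with 95% exact counting intervals and a line at equality. CCNB1 lies left of the line in both comparisons with stem (-0.74 and -0.66), CENPF lies right of it in both (0.64 and 0.50), and no interval for basal over luminal leaves the line.

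The stem library was the deep one, so proportions were also read from the positive control probes, spiked RNAs whose proportions are the same in every lane. This check was chosen after the data were seen. The probes next in abundance to the members, B, C and D, had 11390, 3413 and 1102 counts in stem. Their log2 odds for stem over luminal were 0.11 (-0.21 to 0.41) for B against C, 0.23 (-0.27 to 0.71) for B against D and 0.13 (-0.42 to 0.66) for C against D. The order of the probes in a pair is arbitrary. The upper limit of 0.71 for B against D is larger in size than the -0.66 of CCNB1 for that comparison. A shift of that size thus lay within the interval of this pair, while B against C stayed short of it. Each value is also for a pair of probes, not for 1 gene against 6. For stem over basal the same pairs gave -0.14 (-0.79 to 0.46), 0.21 (-0.79 to 1.08) and 0.36 (-0.75 to 1.38), which include equality and also the -0.74 of CCNB1, so a shift of that size in the spikes was not detectable against basal. Probe A, with 53549 counts in stem, had log2 odds against B of -0.31 (-0.62 to -0.0090) for stem over basal and -0.38 (-0.54 to -0.22) for stem over luminal. The most abundant spike was thus low in stem beside the next one. CCNB1 had 9589 counts in stem. CDC20 had 10415 there, with log2 odds against the other 6 genes of 0.36 for stem over basal and -0.12 for stem over luminal. The part of depth and of high counts in the share of CCNB1 was not tested.

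Other mitosis genes on the panel were MKI67, a marker of cycling cells, NDC80 and NUF2 of the kinetochore, PTTG1, which encodes securin, KIF2C, a microtubule-depolymerising kinesin, the kinase gene MELK and MYBL2, a transcription factor of late cell-cycle genes. Of these 7, 0 were higher and 1 was lower in stem than in basal with intervals that excluded equality, NUF2 at -0.63 (-1.13 to -0.08). For stem over luminal 1 was higher, MYBL2, just past 2-fold with a log2 interval of 0.37 to 1.71, and 0 were lower. For basal over luminal 1 was higher, NUF2 at 0.97 (0.11 to 1.87), and 0 were lower. NUF2 kept its interval below equality in 6 of 11 settings for stem over basal, and above it in 9 of 11 for basal over luminal. Without SF3A1 in the scale both intervals included equality, at -0.46 (-0.96 to 0.09) and 0.74 (-0.12 to 1.65), as they did under total count, at -0.34 (-0.85 to 0.21) and 0.79 (-0.07 to 1.69). Securin, which is destroyed together with cyclin B1 at anaphase, had 13510 counts in stem, 146 in basal and 138 in luminal. Its log2 ratio was -0.23 (-0.47 to 0.02) for stem over basal. Against luminal it was 0.07 (-0.17 to 0.33) for stem and 0.30 (-0.04 to 0.65) for basal. Securin had the signs of CCNB1 for stem over basal and basal over luminal, but all its intervals included equality. The medians of this list were -0.22, 0.27 and 0.48 in that order, beside 0.16, 0.49 and 0.61 for the 7 mitosis and cytokinesis genes.

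The 8 genes of S phase and cycle entry were RRM2 and TYMS of nucleotide synthesis, CDC6 and ORC6 (listed as ORC6L) of replication licensing, the exonuclease gene EXO1, the ubiquitin-conjugating enzyme gene UBE2T, the cyclin gene CCNE1 and RB1, a repressor of cycle entry. For stem over basal 2 were higher, RRM2 at 0.95 (0.55 to 1.38) and RB1 at 0.67 (0.09 to 1.33), and 1 was lower, UBE2T at -0.54 with an upper limit of -0.0030. For stem over luminal 4 were higher (EXO1, RB1, RRM2 and TYMS) and 0 lower, and for basal over luminal 1 was higher, TYMS at 0.65 (0.21 to 1.10), and 0 lower. The list medians were 0.36, 0.56 and 0.23.

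Set against the S phase list, which again needs no scale, the summed counts of the 7 mitosis and cytokinesis genes came to 1.43 per S phase count in stem, 1.84 in basal and 1.57 in luminal. The log2 odds were -0.36 (-0.58 to -0.15) for stem over basal. They were -0.13 (-0.37 to 0.10) between stem and luminal, and 0.23 (-0.09 to 0.55) between basal and luminal. The stem over basal value rested on single genes. Without RRM2 in the S phase list it came to -0.14 (-0.37 to 0.10), and without CCNB1 among the 7 as well it turned to 0.04 (-0.21 to 0.29), alternatives chosen after the data were seen. Against the other mitosis genes all 3 intervals included equality, with log2 odds of 0.04 (-0.17 to 0.26) for stem over basal, 0.18 (-0.06 to 0.41) against luminal and 0.13 (-0.19 to 0.45) when basal was set against luminal. Per count of the rest of the panel, more of the 7 genes were counted in stem than in luminal, with log2 odds of 0.58 (0.43 to 0.73). The same held for basal against luminal, with 0.48 (0.28 to 0.69), while stem over basal gave 0.10 (-0.04 to 0.23). KRT5 and KRT8 make up a large share of the rest. Without these keratins, left out only once the values were known, the log2 odds were 0.35 (0.20 to 0.51) for stem over luminal, 0.47 (0.27 to 0.68) for basal over luminal and -0.12 (-0.26 to 0.02) for stem over basal, the last with its sign turned.

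**Figure D4:**
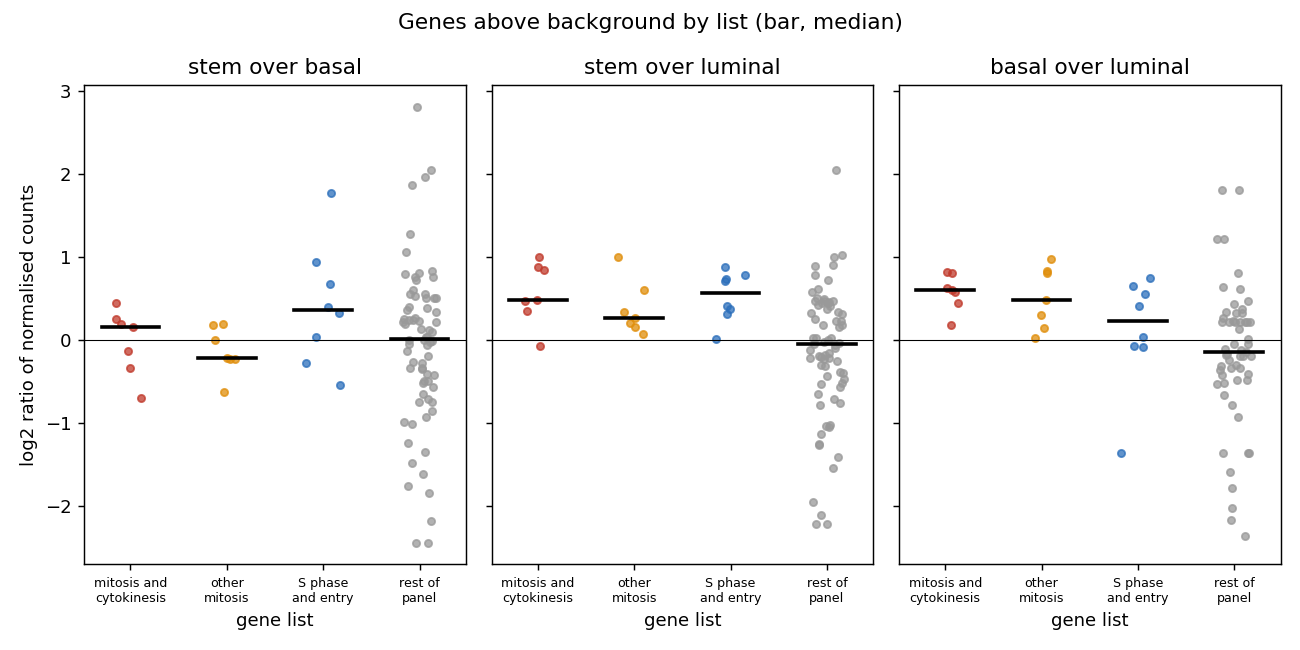
Log2 ratio of every gene above background (points) for stem over basal, stem over luminal and basal over luminal, by gene list, with the list median as a bar. Points include genes at the lowest listed value in a shallow library. The 7 mitosis and cytokinesis genes have medians of 0.16, 0.49 and 0.61, and those of the rest of the panel are 0.02, -0.05 and -0.14.

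Patterns over the 3 libraries were compared by the Euclidean distance between log2 normalised counts centred on each gene's mean, among the 32 other genes with at least 20 counts in every library. The mean pattern of the 7 was 0.18 in stem, 0.20 in basal and -0.38 in luminal. Nearest to it were PHGDH, an enzyme of serine synthesis, at a distance of 0.02, the receptor gene EGFR at 0.15, SPINT2, a serine protease inhibitor, at 0.18, TYMS at 0.19 and the receptor gene MET at 0.20. Of the 7 themselves CEP55 lay nearest to their mean, at 0.09, and CCNB1 farthest, at 0.54. With 3 points per gene such likeness is a description, and 4 of the 5 nearest genes were outside the cell-cycle lists.

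The choice of scale bears on the level of the group more than on its proportions. There were far fewer endogenous counts per spike in luminal than in the other libraries, the positive controls having summed to 69670 counts in stem, 776 in basal and 2795 in luminal. On the scale of 6 positive controls all 7 were more than 2-fold higher both in stem and in basal than in luminal. Their summed log2 ratio against luminal was then 2.10 for stem and 1.76 for basal. That scale adds 1.66 and 1.19 to every gene alike, so it says nothing particular of these genes, and the RNA put into each lane is not known. Luminal was lower than stem and lower than basal in the sum of the 7 genes under each of the 11 settings. Those settings are not independent, as all reuse the same 3 libraries and 5 of them only leave out 1 housekeeping gene. The scales from all 6 positive controls and from probes A to D raise every gene against luminal, so their direction was nearly fixed in advance.

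**Figure D5:**
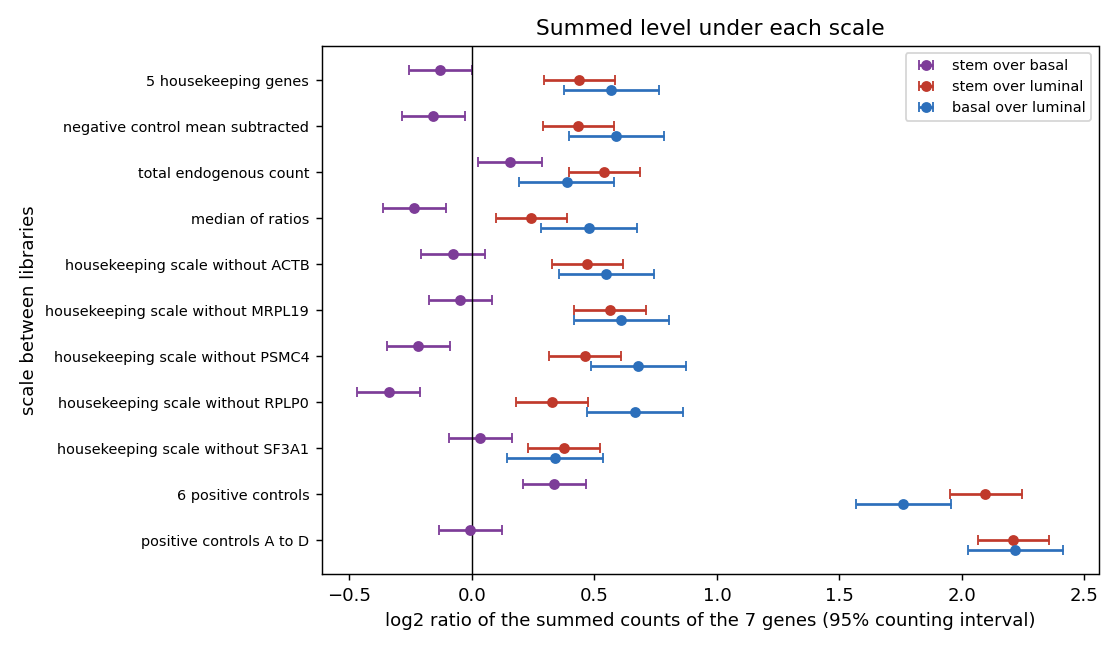
Log2 ratio of the summed counts of the 7 genes under each scale (rows) for stem over basal, stem over luminal and basal over luminal, with 95% counting intervals and a line at equality. Stem over luminal and basal over luminal lie right of the line in all 11 rows, from 0.24 and 0.34 upward, while stem over basal falls on both sides, from -0.34 without RPLP0 to 0.33 on the 6 positive controls.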

How the data were processed

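Total RNA of 3 MCF10A subpopulations was counted on the nCounter, with 1 library each. Raw counts per probe were deposited, without normalization per the file headers, and pre-processing followed the manufacturer's protocol per the labels. The deposited log2 values, for 105 genes, are the log2 ratio of each count to a housekeeping geometric mean (RPLP0, ACTB, SF3A1, PSMC4 and MRPL19), to within 3.53e-09, and served as a check. Raw counts were used throughout, with a gene scored past 2-fold when its ratio was at least 2-fold, its 95% interval excluded equality and it was above background in 1 of the 2 libraries. Intervals (scipy 1.17.1) cover counting error only and were tested on simulated Poisson counts with the scale held fixed. That test says nothing about error of the scale or the spread among housekeeping genes. All 7 probe accessions matched RefSeq by unversioned number. The genome build behind the authors' probes is not given in the sources used here, and the promoter coordinates are those of RefSeq on GRCh38.p14. The alternatives were other scales, background subtraction, other fold limits and an interval that leaves 0.1% outside. Members, lists and comparisons were chosen with earlier results of these data known. The named genes were the 7, the listed cell-cycle genes on the panel, the 5 genes nearest in pattern and the housekeeping genes.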

Additional observations from a re-analysis of the deposited data

How the results depend on the processing

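In all, 10 alternatives were run for the scale and the background, 2 for the fold limit and 1 for the interval, and leaving out CCNB1 or ANLN was added after the data were seen. On the scales of 6 positive controls and of probes A to D, the median log2 ratio of the 7 genes came to 1.80 and 2.26 for basal over luminal and to 2.15 and 2.26 for stem over luminal, and their sum to 1.76 and 2.22 and to 2.10 and 2.21. On both scales 7 genes passed 2-fold in each of these comparisons, and for basal over luminal 7 had intervals that excluded equality. For stem over basal the 6 positive controls gave a median of 0.62 and a sum of 0.33, and turned UBE2C to 0.13. The sum for stem over basal was also -0.34 without RPLP0, 0.035 without SF3A1, 0.15 under total count and 0.048 without CCNB1. For stem over luminal the sum was 0.24 under median of ratios and 0.59 without CCNB1, and for basal over luminal 0.34 without SF3A1. The log2 odds of the 7 genes against the S phase list for stem over basal, -0.36, turned to 0.041 without RRM2 and CCNB1.

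The number of genes past 2-fold for stem over luminal, 1 as reported, was 0 without RPLP0, without SF3A1, under median of ratios and at 3-fold, and 2 without MRPL19, after background subtraction and at 1.5-fold. At 1.5-fold it was 4 for basal over luminal and 1 for stem over basal. Genes with intervals that excluded equality numbered 2 for stem over luminal without RPLP0 or under median of ratios, and 2 for basal over luminal without SF3A1. With intervals that leave 0.1% outside they numbered 1 for stem over basal, 2 for stem over luminal and 1 for basal over luminal. The cause of these shifts was not tested. Differences of the deposited log2 values gave the reported ratios. Odds among the 7 genes moved by less than their intervals when background was subtracted. No paired analysis was possible because each subpopulation has 1 library, and none could be left out. Counts of 7 to 143 in basal and luminal limit every ratio.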
